A study of Mus musculus with 24 samples.

Results

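Collagen genes were taken as every symbol of the deposited count table that has the form of a collagen chain (Col, a type number, the letter a and a chain number) and 20 or more counts summed over the 24 libraries. The table holds 52997 symbols, of which 44 have this form and 43 were kept. Grouped by the kind of collagen they encode, the 43 genes were 11 fibrillar, 8 basement membrane, 8 FACIT (fibril-associated collagens with interrupted triple helices) and 16 other genes. Col24a1, with 38 counts in all, was the lowest gene kept, and Col9a1, with 15 counts, was the only one left out. A filter on low counts left 37 of the 43 genes to be tested. The genes not tested were Col2a1, Col11a1, Col24a1, Col25a1, Col6a4 and Col9a2, which had 38 to 88 counts over all libraries.

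RNA was sequenced from cells sorted from hindlimb skeletal muscle of C57BL/6 mice aged 8 weeks, taken 1 day after injury with cardiotoxin or uninjured. Cardiotoxin is a snake venom toxin that kills muscle fibers and spares their resident stem cells. The injured groups were CD31+ endothelial cells, CD45+ hematopoietic cells, mesenchymal stromal cells (MSC) and satellite cells, the muscle stem cells (MuSC), and the same populations were sorted from uninjured muscle, with 3 libraries in each of the 8 groups. MSC were gated by the submitters as CD45-CD31-Sca1+PDGFRa+ and MuSC as CD45-CD31-Sca1-Vcam1+, so that cells outside these gates, muscle fibers among them, were not measured. Replicates are described as biological, but whether a library pooled mice is not said, so that a p-value here measures the spread from library to library. That spread was estimated for each gene over all 8 groups together. A p-value for one population therefore also takes in the spread of the others, including groups with few counts of the gene.

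Collagens are secreted proteins of 3 chains wound into a triple helix, and they form most of the extracellular matrix of muscle. Fibrillar collagens (types I, II, III, V, XI, XXIV and XXVII) pack into the fibers of connective tissue. Collagen IV forms the network of the basement membrane around muscle fibers, satellite cells and capillaries, to which collagens XV and XVIII are bound. FACIT collagens sit on the surface of fibrils, and collagen VI forms beaded filaments between the basement membrane and the fibrils. In mouse satellite cells collagen V has been described as a signal for quiescence that acts through the calcitonin receptor Calcr.

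Libraries held 2301202 to 7649841 counts. Levels are given in CPM, counts relative to the TMM-scaled size of the library. Where a library has no count of a gene, up to 3 counts remain possible, which is 0.389 to 1.02 CPM depending on the library. The defining markers of each gate were present in all libraries of that gate. Summed endothelial markers were 6007 to 6825 CPM in injured and 7777 to 8129 CPM in uninjured CD31+ cells, and summed satellite cell markers were 1450 to 1784 CPM in injured and 3656 to 4358 CPM in uninjured MuSC. Some libraries stood apart by markers of another population. Injured MuSC replicates 2 and 3 held the stromal gene Pdgfra at 48.8 and 25.4 CPM, against 0.298 CPM in replicate 1, and Dcn at 354 and 256 CPM against 16.7 CPM. Dcn was at 26.9, 2.37 and 67.5 CPM in uninjured MuSC. The 7 listed stromal markers summed to 120, 819 and 580 CPM in injured MuSC replicates 1 to 3. In uninjured MuSC the same sum was 638 to 694 CPM, with 1 to 3 of the 7 genes above 10 CPM. Uninjured MuSC replicate 3 held tenocyte markers at a sum of 262.5 CPM, against 3.68 and 2.37 CPM in the other two and 104 to 186 CPM in the injured libraries. Injured CD45+ replicate 3 held Dcn at 114 CPM, against 1.26 CPM in replicate 1 and 0 in replicate 2, and injured CD31+ replicate 1 held leukocyte markers at a sum of 227 CPM, against 8.89 and 10.1 CPM in the other two.

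Collagen transcripts took up very different parts of the libraries. They made up 1.30% ± 0.06 of all counts in injured MSC and 4.45% ± 0.80 in uninjured MSC (SD, n = 3 each, as for the shares that follow). In MuSC they made up 0.147% ± 0.011 after injury and 0.354% ± 0.041 without it. In CD31+ cells the order was the other way, with 0.466% ± 0.013 after injury and 0.339% ± 0.027 without it, and the libraries of both conditions did not overlap in any of these 3 populations. CD45+ cells had hardly any collagen counts, 0.00712% ± 0.00645 after injury and 0.00979% ± 0.00058 without it. The injured libraries held 0.00211%, 0.00484% and 0.0144%, the last in replicate 3, which had Dcn at 114 CPM. In these sorted bulk samples, fewer cells that make a transcript and less of it per cell cannot be told apart.

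Each population had its own make-up of collagen counts. Basement membrane genes took 96.4% ± 0.8 of the collagen counts of injured and 92.2% ± 0.9 of those of uninjured CD31+ cells. Fibrillar genes took 65.0% ± 1.8 in injured and 75.9% ± 5.0 in uninjured MSC. MuSC were mixed, with 48.9% ± 0.8 fibrillar and 21.3% ± 0.4 basement membrane counts after injury, against 50.2% ± 0.6 and 24.7% ± 0.4 without it. In uninjured CD45+ cells FACIT genes took 34.4% ± 3.3 of the few collagen counts, most of them from Col14a1, against 8.01% ± 6.42 in injured CD45+ cells.

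**Figure D1:**
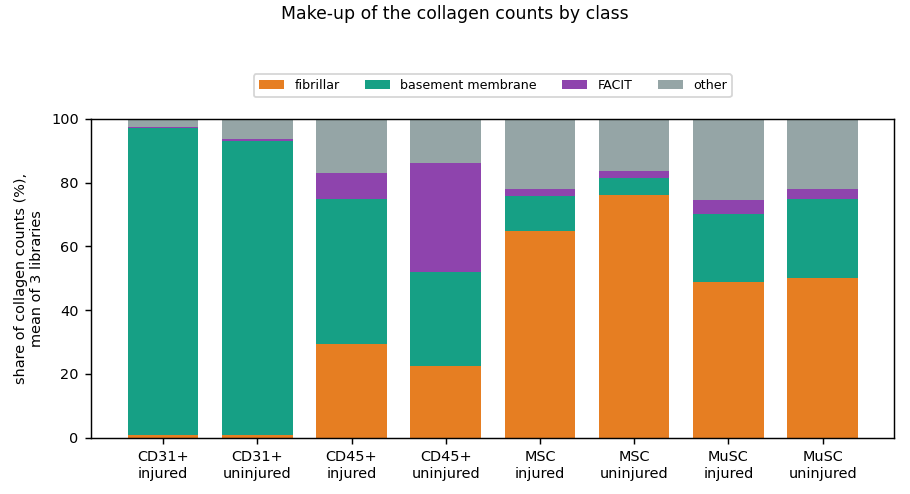
Stacked bars show the mean share (%) of the collagen counts that fell on fibrillar, basement membrane, FACIT and other collagen genes in the 3 libraries of each of the 8 groups, injured left of uninjured in each population. Basement membrane genes fill 96.4% of the bar of injured CD31+ cells and fibrillar genes 65.0% of that of injured MSC.

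In pairs of uninjured populations, 26 of 37 collagen genes were higher and 4 lower in MSC than in MuSC, where 23.3% and 17.4% of all 16263 genes tested were (edgeR's quasi-likelihood test, adjusted p below 0.05). Against CD31+ cells 21 were higher and 3 lower in MSC, where 24.2% and 22.8% of all genes were, and against CD45+ cells 27 were higher and 0 lower (0 at an unadjusted p below 0.05 as well), where 28.4% of all genes were in each direction. In MuSC 15 were higher and 7 lower than in CD31+ cells, where 23.2% and 26% of all genes were, and 20 were higher and 1 lower than in CD45+ cells, where 27.2% and 29% were. In CD31+ cells 12 were higher and 1 lower than in CD45+ cells, where 25.5% and 25.1% of all genes were.

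Most collagen genes had their highest level among the uninjured populations in MSC. Of the 37 genes tested, 21 were higher in MSC and past the threshold in all 3 comparisons with another population, where 9.09% of all genes did so. They were 7 fibrillar, 6 basement membrane, 3 FACIT and 5 other genes. MuSC held 4 such genes, Col7a1, Col17a1, Col19a1 and Col26a1, where 7.88% of all genes did so, and CD31+ cells held 2, Col13a1 and Col28a1, where 9.92% did. No collagen gene was highest in CD45+ cells, where 13.7% of all genes were. The 10 other genes, Col4a1 and Col4a2 among them, passed against all 3 in no population.

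Ranked within a population by CPM per kilobase of transcript, which makes levels of genes of different length comparable, the leading chains differed. In injured MSC the order was Col3a1 (610 ± 66 CPM per kb), Col1a2 (386 ± 49), Col1a1 (285 ± 38), Col6a2 (256 ± 13) and Col6a1 (183 ± 9). In uninjured MSC the same 5 genes led in the same order, from 3338 ± 918 CPM per kb for Col3a1 to 776 ± 85 for Col6a1, and there Col1a2 (1954 ± 584) and Col1a1 (1560 ± 517) lay within an SD of each other. Injured MuSC were led by Col3a1 (55.9 ± 5.2 CPM per kb), Col6a1 (27.6 ± 0.4) and Col5a2 (26.1 ± 2.1), and uninjured MuSC by Col3a1 (173 ± 19), Col6a1 (87.8 ± 8.1) and Col4a1 (43.0 ± 5.4). In CD31+ cells Col4a2 came first and Col4a1 next, at 418 ± 15 and 221 ± 13 CPM per kb after injury and at 293 ± 15 and 151 ± 3 without it. The next gene in CD31+ cells was Col18a1 after injury (24.6 ± 4.0 CPM per kb) and Col8a1 without it (28.1 ± 1.6).

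**Figure D2:**
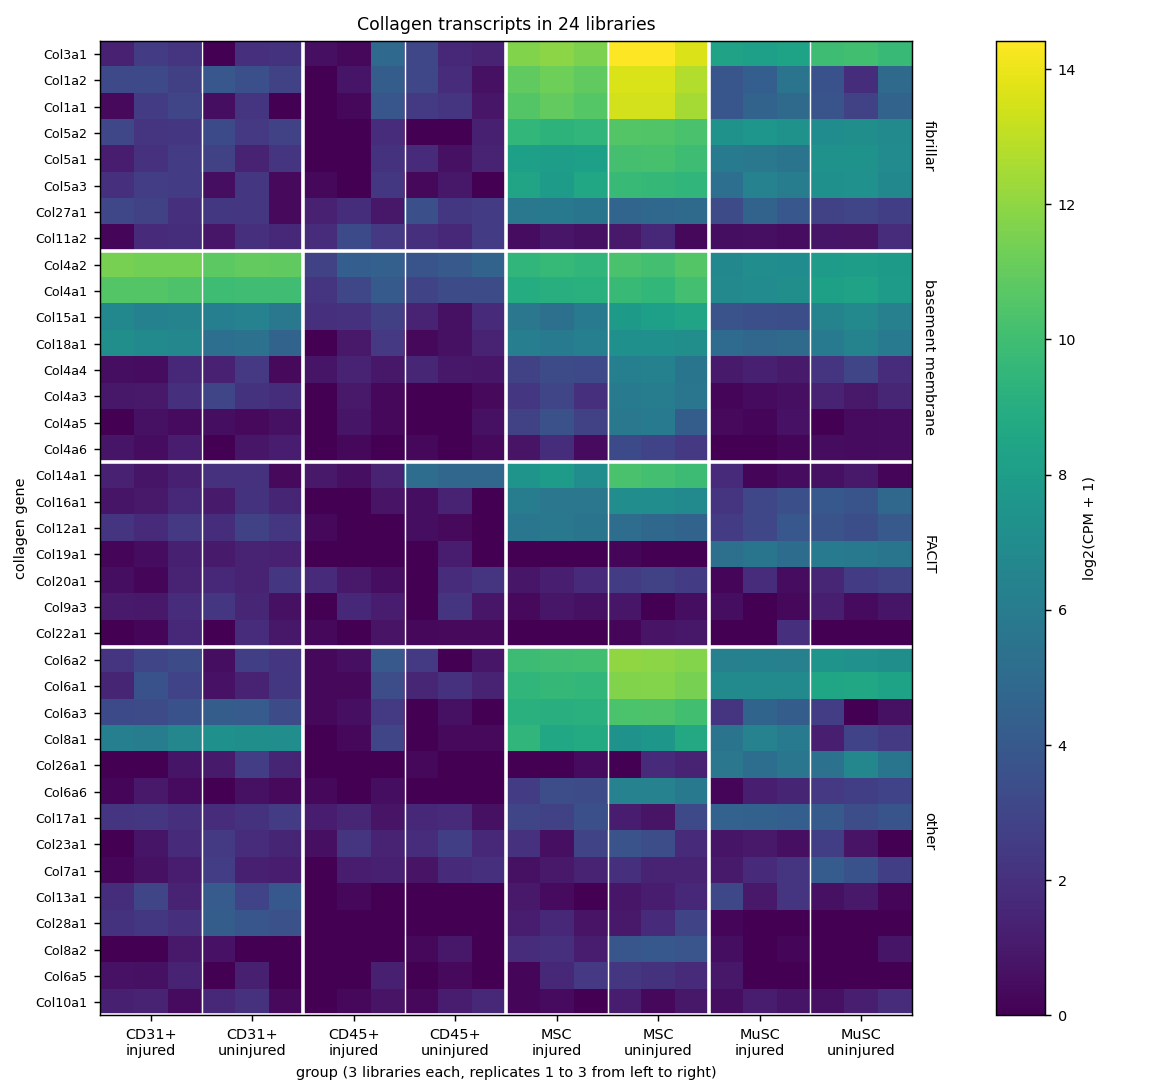
Each row is 1 of the 37 tested collagen genes, ordered by class and mean level, each column is 1 of the 24 libraries, and the colour gives log2(CPM + 1), with injured libraries left of uninjured ones in each population. Fibrillar genes and Col6a1 to Col6a3 are bright in MSC, Col4a1 and Col4a2 in CD31+ cells, and Col19a1 and Col26a1 in MuSC.

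After injury, collagen genes were lower in MSC and MuSC and few changed in the other populations. In MSC 20 of the 37 genes fell and 1 rose, where 23.6% of all genes tested fell and 18.3% rose. In MuSC 12 fell and 4 rose, where 17.5% of all genes fell and 21.4% rose. In CD31+ cells 3 fell (Col4a3, Col26a1 and Col28a1) and 1 rose (Col18a1), where 9.3% of all genes fell and 14.1% rose. In CD45+ cells 2 fell (Col14a1 and Col27a1) and 1 rose (Col15a1), where 18.5% of all genes fell and 16% rose. The median log2 fold change of the collagens, injured over uninjured, was -1.77 in MSC, -1.01 in MuSC, -0.36 in CD31+ cells and 0.14 in CD45+ cells. Over all genes tested it was -0.22 in MSC, -0.04 in MuSC, -0.04 in CD31+ cells and -0.12 in CD45+ cells. The count of genes that fell in MSC was 10 without injured replicate 1 and 13 without uninjured replicate 1. In MuSC the count that fell was 8 without injured replicate 1. No count is given without both injured replicates 2 and 3, where 1 injured MuSC library was left. In CD31+ cells no collagen gene fell without injured replicate 1, 1 fell without injured replicate 2 and 1 without uninjured replicate 1, while 2 rose without uninjured replicate 2. In MuSC 2 rose without uninjured replicate 3. Of the genes that rose in MSC, none was left without uninjured replicate 2 or without any 1 of the injured libraries, and 2 rose without uninjured replicate 3. In CD45+ cells none rose without uninjured replicate 2 or injured replicate 3, and 1 fell without uninjured replicate 1.

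The libraries of both conditions did not overlap for 23 lower and 2 higher collagen genes in MSC, where this held for 31.9% and 23% of all genes. In MuSC they did not overlap for 16 lower and 4 higher genes, where 24% and 25.5% of all genes did so. In CD31+ cells the counts were 5 lower and 3 higher, where 17.6% and 19.6% of all genes did so, and in CD45+ cells 2 lower and 1 higher, where 22.9% and 20.1% did.

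Beside the lower collagens of injured MSC and MuSC, other transcripts of the same libraries moved. Summed stromal markers were 14408 to 17540 CPM in injured and 42556 to 49422 CPM in uninjured MSC, with all 7 of 7 listed genes above 0 in every library. Pdgfra, which encodes the receptor used for the gate, averaged 653 ± 71 CPM in injured and 568 ± 40 CPM in uninjured MSC (SD, n = 3 each). Muscle fiber markers summed to 2.66 to 13.3 CPM in injured and 132 to 378 CPM in uninjured MSC, with Mb at 0 in all injured libraries. In MuSC muscle fiber markers summed to 150 to 187 CPM after injury and 334 to 360 CPM without it, and mural cell markers to 495 to 981 CPM after injury and 1146 to 1961 CPM without it, with no overlap for either. Only 2 or 3 of the 8 mural genes were above 10 CPM in each MuSC library, so that the mural sum rests on few genes. The part of these differences in the collagen results was not tested.

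**Figure D3:**
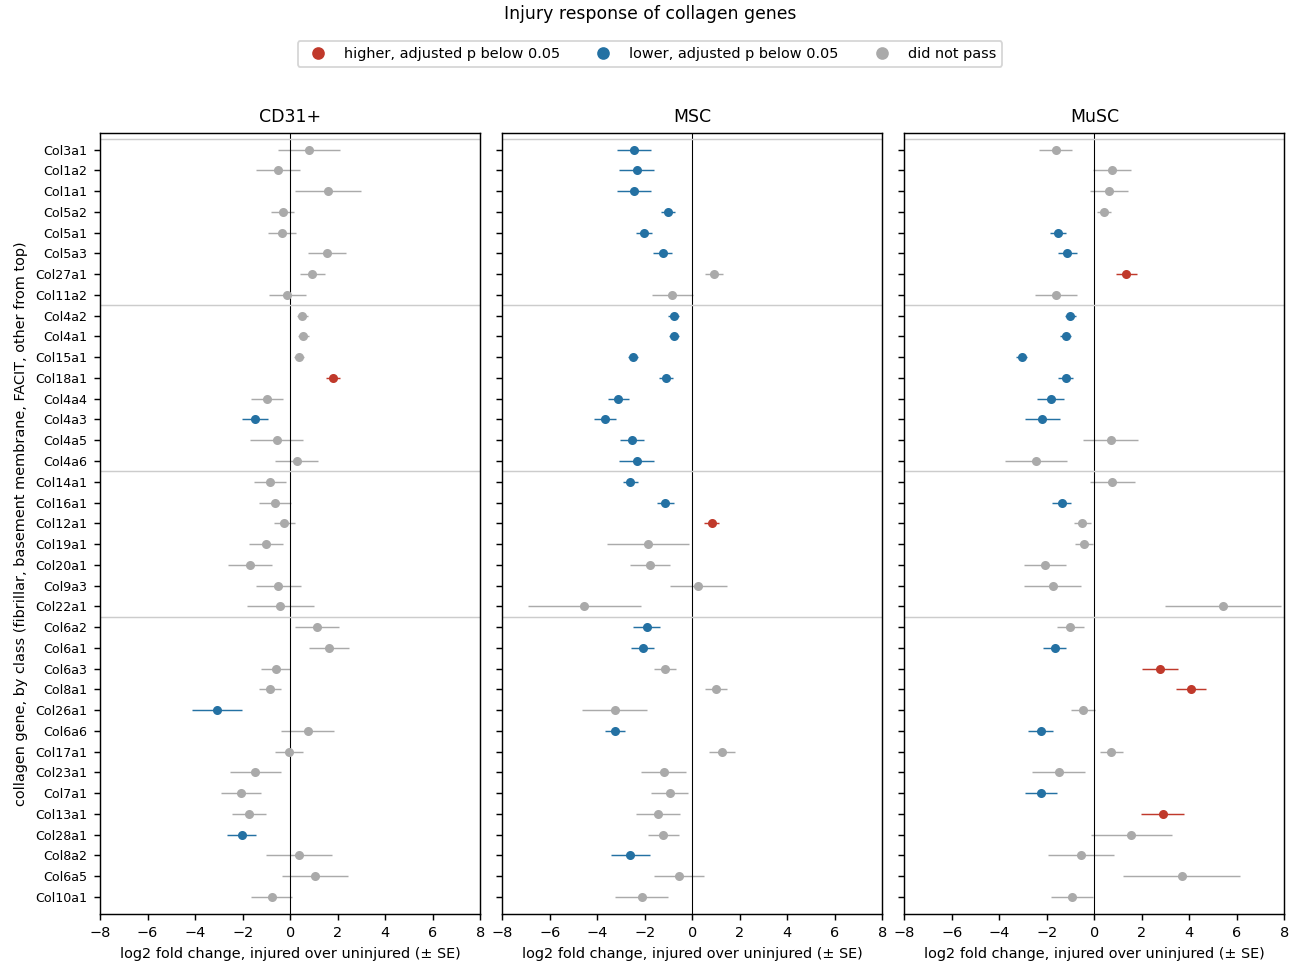
Points give the log2 fold change, injured over uninjured, of the 37 tested collagen genes in CD31+ cells, MSC and MuSC with its standard error as a bar, red for genes that rose, blue for genes that fell and grey for genes that did not pass an adjusted p of 0.05. CD45+ cells, in which 3 genes passed, are not drawn. Most points of MSC lie left of 0, and Col8a1 lies far to the right in MuSC, at 4.05.

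Among fibrillar genes, 6 of 8 fell in injured MSC, where 23.6% of all genes fell. Col3a1, the chain of collagen III, had 3305, 3802 and 3082 CPM in injured and 21905, 21115 and 12690 CPM in uninjured MSC, a log2 fold change of -2.45 ± 0.72 (SE; adjusted p = 0.0111). Col1a1 and Col1a2, the chains of collagen I, fell by 2.45 ± 0.72 and 2.34 ± 0.74 on the log2 scale (adjusted p = 0.0115 and 0.0174). Col1a1 had 1527, 1950 and 1599 CPM in injured and 10889, 11149 and 5715 CPM in uninjured MSC. Col1a2 had 1915, 2367 and 1909 CPM in injured and 12275, 12231 and 6844 CPM in uninjured MSC. The groups were far apart for all 3 genes, and uninjured replicate 3 was the lowest of its group. Without injured replicate 1, the adjusted p of these 3 genes was 0.0577 for Col3a1, 0.0638 for Col1a1 and 0.0827 for Col1a2. The Col1a2 call was also lost without injured replicate 3 (0.0656), uninjured replicate 1 (0.0576) or uninjured replicate 2 (0.0600), and with DESeq2 the adjusted p of Col1a1 was 0.0815. Without the filter on low counts the Col1a2 call was lost as well.

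In MuSC, the same 3 genes did not pass the test. Col3a1 had 322, 278 and 333 CPM in injured and 985, 1057 and 847 CPM in uninjured MuSC, and these groups did not overlap. Its log2 fold change of -1.63 ± 0.70 did not pass (adjusted p = 0.0775), but did so when only the 6 MuSC libraries were fitted (adjusted p = 2.19e-07). Col1a1 was near the bottom of the range, with 13.2, 22.6 and 31.0 CPM in injured and 12.6, 6.10 and 23.6 CPM in uninjured MuSC, and the groups overlapped. The ratio of Col3a1 to Col1a1 counts was 15.8 ± 7.4 in injured MuSC, against 2.01 ± 0.13 in injured MSC (SD, n = 3 each). Uninjured MSC had a ratio of 2.04 ± 0.17. In uninjured MuSC the ratio was 78.3 and 35.95 in replicates 1 and 3, and replicate 2 had under 20 counts of Col1a1. Injured MuSC replicates 1 to 3 had 24.3, 12.3 and 10.7, lower in replicates 2 and 3, which also held Pdgfra and Dcn. In MuSC the lowest uninjured level of Col3a1, 847 CPM, was in replicate 3, which held tenocyte markers, as did all 3 injured libraries.

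The window before the start of Col3a1 is shown because this gene gave the most collagen counts, 365064 over all libraries. The 250 bases come from RefSeq on GRCm38.p6 and hold no exon. Capitals mark the TATA box letters TATAAA, which with their reverse TTTATA were found in 12.4% of 32851 such windows and in 5 of the 36 windows of collagen genes. For 34 of the 43 genes a window was given.
Col3a1, chr1:45311288-45311537, plus strand: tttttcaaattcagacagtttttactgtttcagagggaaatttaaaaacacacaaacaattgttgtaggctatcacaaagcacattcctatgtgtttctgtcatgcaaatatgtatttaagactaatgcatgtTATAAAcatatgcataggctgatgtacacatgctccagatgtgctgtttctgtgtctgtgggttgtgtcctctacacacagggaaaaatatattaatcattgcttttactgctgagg

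The genes of collagen V, which sets the width of collagen I fibrils, moved apart from one another. Col5a1 fell in MSC, to 282, 266 and 282 CPM after injury against 1159, 1207 and 990 CPM without it (log2 fold change -2.02 ± 0.33, adjusted p = 7.69e-05). It also fell in MuSC, to 58.6, 53.6 and 46.6 CPM after injury against 168, 168 and 125 CPM without it (-1.54 ± 0.34, adjusted p = 0.0013). Over 12 alternatives, among them that without the injured MuSC replicates 2 and 3, its log2 fold change in MuSC ranged from -1.66 to -1.44. Col5a3 fell by 1.25 ± 0.38 in MSC and by 1.13 ± 0.39 in MuSC on the log2 scale (adjusted p = 0.0138 and 0.0295). Col5a2 fell less in MSC (-1.02 ± 0.31, adjusted p = 0.012) and did not pass in MuSC, where it had 161, 188 and 169 CPM after injury and 126, 145 and 121 CPM without it (adjusted p = 0.33, or 0.0132 when only the 6 MuSC libraries were fitted). In MSC the calls of Col5a2 and Col5a3 were lost without replicate 1 or 2 of either condition, and in MuSC that of Col5a3 without injured replicate 1 or 3 or uninjured replicate 1 or 2. With 1 library left out, the adjusted p ranged to 0.0836 for Col5a2 and 0.0741 for Col5a3 in MSC and to 0.14 for Col5a3 in MuSC. Each of these calls was also lost without the filter on low counts, and both Col5a3 calls with DESeq2. Over all alternatives the adjusted p ranged to 0.159 for Col5a2 and 0.127 for Col5a3 in MSC and to 0.17 for Col5a3 in MuSC.

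The balance of the collagen V chains was not the same in both conditions. The ratio of Col5a2 to Col5a1 counts was 2.5 ± 0.14 in injured and 1.26 ± 0.06 in uninjured MSC (SD, n = 3 each). In MuSC it was 3.30 ± 0.48 after injury and 0.859 ± 0.105 without it, and the libraries did not overlap in either population. Calcr, the receptor named above, fell in MuSC as well, to 72.4 ± 7.9 CPM after injury against 414 ± 27 CPM without it (log2 fold change -2.52 ± 0.18, adjusted p = 4e-10).

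Of the other fibrillar genes, Col27a1 rose in MuSC, with 8.78, 23.4 and 13.9 CPM after injury and 5.81, 7.12 and 5.30 CPM without it (log2 fold change 1.35 ± 0.44, adjusted p = 0.0168). Without the injured MuSC replicates 2 and 3, which left 1 injured library, the log2 fold change was 0.40. The call was lost without injured replicate 2 (adjusted p = 0.127), uninjured replicate 1 (0.0542) or uninjured replicate 3 (0.0631). In injured MSC it had 53.4, 56.5 and 47.1 CPM, against 24.97, 28.7 and 30.2 CPM in uninjured MSC, groups that did not overlap, with an adjusted p of 0.063. It passed in MSC without the filter on low counts and when only the 6 MSC libraries were fitted (adjusted p down to 0.000131). It fell in CD45+ cells, to 1.52, 2.70 and 0.934 CPM after injury against 10.7, 4.05 and 4.87 CPM without it (adjusted p = 0.00968, or 0.0605 without injured replicate 3 and 0.105 without uninjured replicate 1). Col11a2 had at most 8.58 CPM in every library. In CD31+ cells no fibrillar gene passed edgeR's test, 0 of 8 had an unadjusted p below 0.05, and none exceeded 13.8 CPM in any library.

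All 8 basement membrane genes fell in injured MSC, with a median log2 fold change of -2.42, where 23.6% of all genes fell. In injured MuSC 6 of 8 fell, with a median of -1.52, where 17.5% of all genes fell. In CD31+ cells 1 rose and 1 fell, with a median of 0.32. These CD31+ counts are near the shares of all genes, of which 14.1% rose and 9.3% fell. Without injured replicate 1, the adjusted p in MSC was 0.132 for Col4a1, 0.115 for Col4a2 and 0.111 for Col4a6. These 3 calls were also lost without uninjured replicate 1, those of Col4a1 and Col4a2 without uninjured replicate 3 (0.175 and 0.157), those of Col4a2 and Col4a6 without injured replicate 3 (0.0503 and 0.0863), and that of Col4a6 without uninjured replicate 2 (0.0562). Without the filter on low counts, the calls of Col4a2 and Col4a6 were lost too.

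Col4a1 and Col4a2, the chains of the common collagen IV network, were highest in CD31+ cells. Col4a2 had 2807, 2649 and 2633 CPM in injured and 1784, 1976 and 1907 CPM in uninjured CD31+ cells. Col4a1 had 1513, 1516 and 1364 CPM in injured and 978, 1019 and 1004 CPM in uninjured CD31+ cells. Every injured library was above every uninjured one, yet neither log2 fold change passed in the fit of all 24 libraries (0.51 ± 0.23, adjusted p = 0.127 for Col4a2 and 0.55 ± 0.23, adjusted p = 0.0861 for Col4a1). When only the 6 CD31+ libraries were fitted, both passed (adjusted p = 0.000853 and 0.000495). Without injury, Col4a1 in MSC did not differ from that in CD31+ cells beyond the spread (log2 fold change of MSC over CD31+ -0.16 ± 0.23, adjusted p = 0.60), with 855, 738 and 1098 CPM in MSC.

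In MSC and MuSC both chains fell. Col4a2 had 730, 796 and 719 CPM in injured and 1231, 1115 and 1498 CPM in uninjured MSC (-0.78 ± 0.24, adjusted p = 0.0122). Col4a1 had 480, 546 and 558 CPM in injured MSC, against 855, 738 and 1098 CPM in uninjured MSC (-0.76 ± 0.23, adjusted p = 0.0101). In MuSC Col4a1 had 111, 123 and 139 CPM after injury and 297, 311 and 244 CPM without it (-1.20 ± 0.23, adjusted p = 0.000319). Col4a2 had 106, 134 and 129 CPM in injured and 254, 259 and 231 CPM in uninjured MuSC (-1.01 ± 0.24, adjusted p = 0.0022). No library of an injured group reached the uninjured range in either population.

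The ratio of Col4a2 to Col4a1 counts, a measure of the balance of both chains, was 1.84 ± 0.09 in injured and 1.89 ± 0.06 in uninjured CD31+ cells, 1.42 ± 0.12 in injured and 1.44 ± 0.07 in uninjured MSC, and 0.993 ± 0.089 in injured and 0.878 ± 0.062 in uninjured MuSC (SD, n = 3 each). Both genes lie head to head on chromosome 8, and in the annotation used (GENCODE vM21) their first exons overlap by 22 bases on opposite strands. Reads from those bases cannot be assigned in a library without strand.

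Col15a1, which encodes a collagen that links the basement membrane to the fibrils beneath it, gave the smallest adjusted p of all collagens in both MSC and MuSC. It had 51.4, 39.5 and 59.1 CPM in injured and 233, 278 and 339 CPM in uninjured MSC (log2 fold change -2.502 ± 0.21, adjusted p = 1.91e-09). In MuSC it had 12.0, 10.6 and 9.995 CPM after injury and 85.6, 110 and 76.8 CPM without it (-3.05 ± 0.23, adjusted p = 2.93e-10). Both pairs of groups were far apart, and the calls held under every alternative that was run. In CD31+ cells it had 106, 79.4 and 85.1 CPM after injury and 73.1, 83.3 and 53.6 CPM without it, overlapping groups whose difference did not pass (0.36 ± 0.21, adjusted p = 0.225).

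Its window is shown because this gene gave the smallest adjusted p in MSC and MuSC. The 250 bases before its RefSeq start on GRCm38.p6 hold none of the 3 short motifs that were searched on both strands, so no capitals appear: the TATA box (TATAAA), the CCAAT box (CCAAT, in 33.8% of all windows and 12 of 36 collagen windows) and the GC box (GGGCGG, in 32.7% of all windows and 22 of 36 collagen windows).
Col15a1, chr4:47207762-47208011, plus strand: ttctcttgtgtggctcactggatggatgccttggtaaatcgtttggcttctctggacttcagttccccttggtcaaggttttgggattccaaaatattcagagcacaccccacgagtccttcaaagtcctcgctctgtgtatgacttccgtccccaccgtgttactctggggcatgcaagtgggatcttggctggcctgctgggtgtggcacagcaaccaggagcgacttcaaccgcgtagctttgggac

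Col18a1, whose product carries the endostatin fragment at its end, moved in opposite directions. It rose in CD31+ cells, with 138, 115 and 99.7 CPM after injury and 37.4, 40.7 and 22.7 CPM without it (log2 fold change 1.80 ± 0.30, adjusted p = 0.000117). Leukocyte markers were raised in injured CD31+ replicate 1, and without that library the adjusted p was 0.000989. It fell in MSC, to 69.9, 62.0 and 73.0 CPM after injury against 153, 151 and 141 CPM without it (-1.12 ± 0.29, adjusted p = 0.00354). It also fell in MuSC, to 32.0, 26.3 and 31.0 CPM after injury against 63.5, 86.8 and 57.7 CPM without it (-1.21 ± 0.30, adjusted p = 0.00274). Over 12 alternatives, among them that without the injured replicates 2 and 3, the log2 fold change in MuSC ranged from -1.32 to -1.02.

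The minor collagen IV genes were largely transcripts of uninjured MSC. Col4a3 had 3.77, 6.96 and 2.88 CPM in injured and 59.99, 64.7 and 48.6 CPM in uninjured MSC (-3.66 ± 0.46, adjusted p = 7.13e-07). Col4a4 had 6.01, 9.28 and 8.09 CPM in injured and 74.7, 80.2 and 48.0 CPM in uninjured MSC (-3.12 ± 0.45, adjusted p = 4.4e-06). Col4a5 had 5.87, 11.1 and 6.11 CPM in injured and 54.5, 62.7 and 18.0 CPM in uninjured MSC (-2.55 ± 0.51, adjusted p = 0.000269). No injured library overlapped the uninjured ones. Col4a6, the lowest of the class, had 0.699, 2.65 and 0.359 CPM in injured and 8.38, 6.50 and 4.22 CPM in uninjured MSC (-2.35 ± 0.74, adjusted p = 0.0133).

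In MuSC Col4a3 and Col4a4 fell at low levels, Col4a3 to at most 0.519 CPM after injury against 1.02 to 1.96 CPM without it, and Col4a4 to at most 1.45 CPM against 2.55 to 7.12 CPM. Their adjusted p-values were 0.0203 and 0.0129. Over the alternatives run, log2 fold changes ranged from -3.38 to -1.86 for Col4a3 and from -2.14 to -1.39 for Col4a4. The Col4a3 call was lost without uninjured replicate 1 or 3 or injured replicate 1 or 2 (adjusted p up to 0.0835), and that of Col4a4 without uninjured replicate 2 (0.0851). Col4a3 also fell in CD31+ cells, where it had 0.923, 0.97 and 2.86 CPM after injury and 7.23, 3.39 and 2.65 CPM without it. Those groups overlapped, and the adjusted p of 0.0454 became 0.179 without injured replicate 1, 0.155 without injured replicate 2 and 0.358 without uninjured replicate 1.

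Col4a3 and Col4a4 lie head to head on chromosome 1 with 71 bases between their annotated starts, and their chains assemble with that of Col4a5 into the collagen IV of kidney and other specialised basement membranes. The bases between both genes are shown because the pair fell together in MSC and in MuSC. They hold no TATA, CCAAT or GC box as spelled above, so no capitals appear. Col4a6 and Col4a5 form a like pair on the X chromosome, with 1308 bases between them.
Col4a4 to Col4a3, chr1:82586850-82586920, minus strand: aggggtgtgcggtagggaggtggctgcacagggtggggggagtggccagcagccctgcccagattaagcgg

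**Figure D4:**
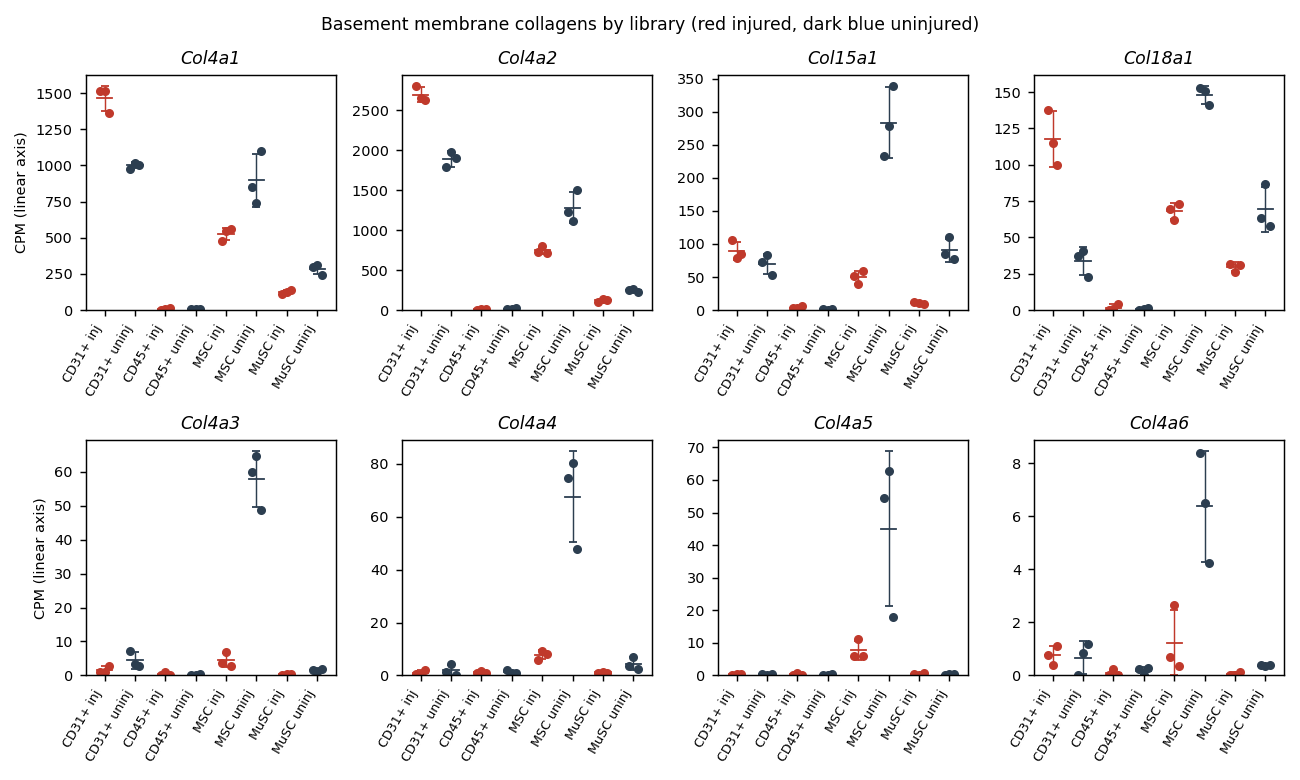
Points give the CPM of the 8 basement membrane collagens in each library on linear axes, red for injured and dark blue for uninjured groups, with the mean as a line and the SD as a bar (3 libraries a group). Col4a1 and Col4a2 are highest in injured CD31+ cells, Col15a1 is highest in uninjured MSC, between 233 and 339 CPM, and Col4a3 to Col4a6 are near 0 outside uninjured MSC.

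Of the 7 FACIT genes tested, 2 fell and 1 rose in MSC, 1 fell in MuSC and 1 fell in CD45+ cells. Of all genes, 23.6% fell in MSC, 17.5% in MuSC and 18.5% in CD45+ cells, and the FACIT counts are near these shares. Col14a1, which binds to collagen I fibrils, had 173, 237 and 133 CPM in injured and 1264, 1099 and 935 CPM in uninjured MSC (log2 fold change -2.60 ± 0.30, adjusted p = 8.43e-07). It was also the leading collagen of uninjured CD45+ cells. There it had 1.01, 0.490 and 1.63 CPM after injury and 34.6, 26.3 and 26.0 CPM without it (-4.75 ± 0.52, adjusted p = 8.74e-07), a call that held under every alternative that was run. In uninjured CD45+ cells the Col14a1 level was 332%, 202% and 314% of that of Dcn, against 3.85%, 3.69% and 3.36% in uninjured MSC. Stromal markers summed to 51.2 to 72.4 CPM in uninjured and 63.9 to 259 CPM in injured CD45+ cells. Only 1 or 2 of the 7 listed genes were above 10 CPM in each uninjured library. In injured replicate 2 the sum was 74.5 CPM with Pdgfra, Dcn, Lum, Smoc2 and Mfap5 at 0, so that it rests on few genes. The part of stromal RNA in the Col14a1 values was not tested.

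Col16a1, which is found at the edge of fibrils and basement membranes, fell in MSC to 68.9, 51.6 and 50.9 CPM after injury against 133, 131 and 113 CPM without it (-1.14 ± 0.35, adjusted p = 0.0126). In MuSC it fell to 3.42, 7.39 and 10.4 CPM after injury against 14.9, 12.2 and 27.5 CPM without it (-1.37 ± 0.40, adjusted p = 0.00927). The highest MuSC value belonged to uninjured replicate 3, whose tenocyte markers summed to 262.5 CPM, against 104 to 186 CPM in injured MuSC. Without that library the adjusted p was 0.107. It was 0.0591 without injured MuSC replicate 1, and in MSC the call was lost without uninjured replicate 1 or 2 or injured replicate 2 or 3 (adjusted p up to 0.0797). Col12a1, a chain known from tendon and from stretched tissue, was the only collagen that rose in MSC, with 49.9, 54.0 and 46.6 CPM after injury and 34.0, 28.2 and 23.3 CPM without it. The groups did not overlap, but the call (0.81 ± 0.32, adjusted p = 0.0475) was lost in 8 of 11 alternatives, whose adjusted p ranged to 0.119, among them those without uninjured replicate 2 or 3 or any 1 of the injured libraries. Summed tenocyte markers were 1052 to 1773 CPM in injured and 437 to 1085 CPM in uninjured MSC, and their part in the Col12a1 values was not tested. The higher sum came from Thbs4 alone, with 1439 ± 374 CPM in injured and 414 ± 206 CPM in uninjured MSC (SD, n = 3 each). The other markers of tendon cells stood the other way or near 0, Tnmd at 4.9 to 10.8 CPM in injured and 20.2 to 93.7 CPM in uninjured MSC and Fmod at 6.8 to 17.8 CPM in injured and 74.9 to 356 CPM in uninjured MSC.

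Col19a1 was nearly limited to MuSC. It had 39.1, 47.7 and 32.7 CPM in injured and 59.2, 55.6 and 47.1 CPM in uninjured MuSC and had at most 1.69 CPM in all libraries of the other 3 populations. The difference after injury did not pass (-0.44 ± 0.37, adjusted p = 0.377). In uninjured MSC 1 library held a single count of it and the other two none.

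Collagen VI genes were lower in injured MSC as well. Col6a1 had 721, 792 and 741 CPM in injured and 3344, 3419 and 2779 CPM in uninjured MSC (-2.08 ± 0.48, adjusted p = 0.00216). Col6a2 had 961, 1011 and 1062 CPM in injured and 4137, 3918 and 3371 CPM in uninjured MSC (-1.91 ± 0.57, adjusted p = 0.0122, or 0.0683 without injured replicate 1, 0.0921 with DESeq2 and 0.0608 without the filter on low counts). Col6a3, the third chain of the common trimer, had 566, 547 and 564 CPM in injured and 1296, 1343 and 1077 CPM in uninjured MSC, groups that did not overlap, and did not pass (-1.15 ± 0.48, adjusted p = 0.063), but did so with RLE scaling (0.0453) and when only the 6 MSC libraries were fitted (1.12e-05). Col6a6, an alternative to Col6a3 in the trimer, fell to 4.61, 9.45 and 9.17 CPM after injury against 82.1, 83.1 and 54.9 CPM without it (-3.25 ± 0.43, adjusted p = 2.76e-06).

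In MuSC Col6a1 and Col6a6 passed as lower and Col6a3 as higher. Col6a1 fell to 113, 115 and 112 CPM after injury against 349, 397 and 334 CPM without it (-1.67 ± 0.48, adjusted p = 0.0109, or 0.0537 with DESeq2). Over 12 alternatives, among them that without the injured replicates 2 and 3, its log2 fold change ranged from -1.82 to -1.58. Col6a2 had 76.3, 79.2 and 77.6 CPM in injured and 174, 154 and 142 CPM in uninjured MuSC and did not pass (-1.01 ± 0.57, adjusted p = 0.181), but did so when only the 6 MuSC libraries were fitted (adjusted p = 1.41e-05). The ratio of Col6a2 to Col6a1 counts was 0.686 ± 0.010 in injured and 0.437 ± 0.056 in uninjured MuSC, and 1.35 ± 0.08 in injured and 1.20 ± 0.05 in uninjured MSC (SD, n = 3 each). Col6a6 fell to 0.149, 1.28 and 1.82 CPM in injured MuSC, against 4.26, 5.42 and 6.48 CPM in uninjured MuSC (-2.26 ± 0.54, adjusted p = 0.00208).

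Col6a3 rose in MuSC, with 3.57, 23.6 and 17.9 CPM after injury and 5.23, 0 and 0.589 CPM without it (2.75 ± 0.76, adjusted p = 0.00806). The groups overlapped, and the values above those of all uninjured libraries came from the injured replicates 2 and 3, which also held Pdgfra and Dcn. Without both libraries, which left 1 injured library, the log2 fold change was 0.54. With only the 6 MuSC libraries fitted the adjusted p was 0.0906. In these libraries the Col6a3 level was 6.67% and 6.99% of that of Dcn, against 4.64% to 6.27% in injured MSC. The Col1a1 level was 6.40% and 12.1% of that of Dcn in these libraries, against 15.5% to 16.9% in injured MSC.

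Col8a1, a short-chain collagen known from vessel walls and the cornea, rose most among the collagens of MuSC. It had 45.5, 82.5 and 62.3 CPM in injured and 1.36, 6.44 and 4.52 CPM in uninjured MuSC (log2 fold change 4.05 ± 0.63, adjusted p = 5.74e-05). All 3 injured libraries were far above the uninjured ones, replicate 1 included, which had Pdgfra at 0.298 CPM. Over 12 alternatives, among them that without the injured replicates 2 and 3, its log2 fold change ranged from 3.43 to 4.43. With 1 library left out the adjusted p ranged to 0.000853. The Col8a1 level was 273%, 23.3% and 24.3% of that of Dcn in injured MuSC, against 8.02%, 3.20% and 4.38% in injured MSC.

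In MSC the values of Col8a1 were 725, 377 and 453 CPM after injury and 170, 198 and 409 CPM without it. The groups overlapped and the difference did not pass (1.00 ± 0.45, adjusted p = 0.0885), but did without uninjured replicate 3 (1.64, adjusted p = 0.0168). In CD31+ cells it had 72.6, 65.2 and 100.004 CPM after injury and 152, 143 and 136 CPM without it, groups that did not overlap, and did not pass (-0.86 ± 0.47, adjusted p = 0.207). Its partner gene Col8a2 fell in MSC, to 2.52, 2.82 and 1.26 CPM after injury against 13.2, 14.6 and 13.1 CPM without it (-2.61 ± 0.81, adjusted p = 0.0129), a call lost without uninjured replicate 1 or 2 or injured replicate 1 or 3 (adjusted p up to 0.0645).

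The window before Col8a1 is shown because this gene rose most in MuSC. It holds 4 GC boxes, in capitals as the reverse letters CCGCCC, in the 250 bases before its RefSeq start on GRCm38.p6, and no TATA or CCAAT box.
Col8a1, chr16:57754738-57754987, minus strand: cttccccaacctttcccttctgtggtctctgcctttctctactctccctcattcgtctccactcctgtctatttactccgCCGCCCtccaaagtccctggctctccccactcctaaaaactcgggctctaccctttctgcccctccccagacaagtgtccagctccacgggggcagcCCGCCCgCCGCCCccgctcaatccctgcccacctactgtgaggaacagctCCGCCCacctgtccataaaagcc

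**Figure D5:**
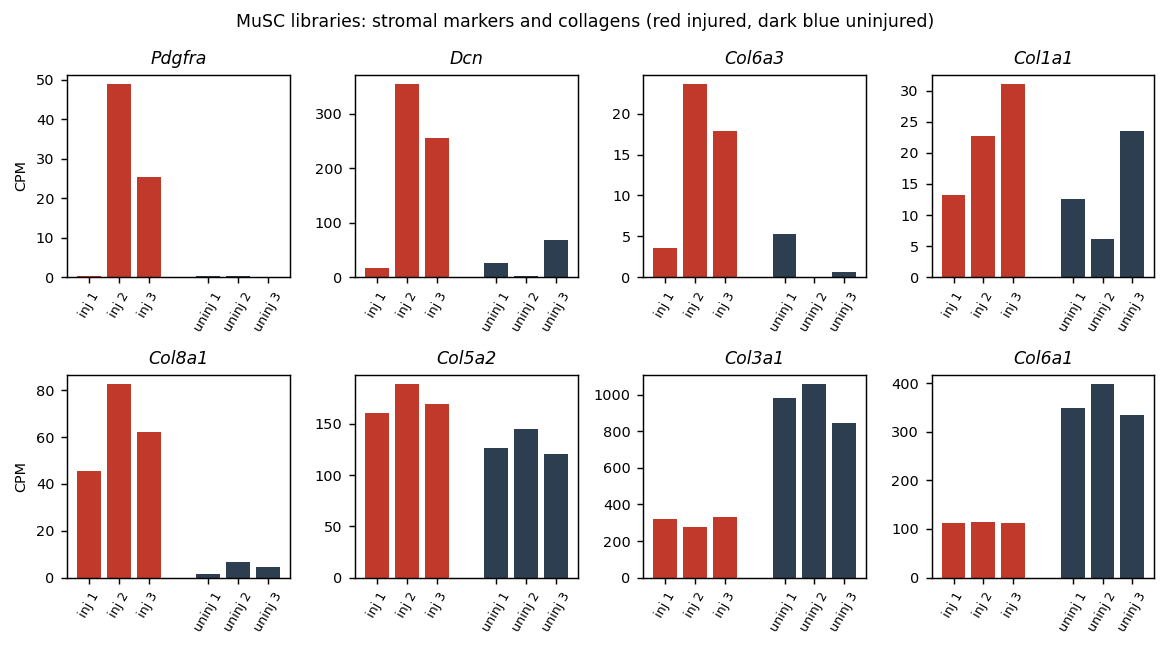
Bars starting at 0 give the CPM of the stromal genes Pdgfra and Dcn and of 6 collagen genes in each MuSC library, injured replicates 1 to 3 in red left of uninjured replicates 1 to 3 in dark blue. Col6a3 is high in the injured libraries 2 and 3, where Pdgfra is at 48.8 and 25.4 CPM, while Col8a1 is above the uninjured libraries in all 3 injured ones and Col3a1 and Col6a1 are below them.

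Among the remaining genes, Col26a1, Col17a1 and Col7a1 were highest in MuSC among the uninjured populations. Col17a1 reached 10.4 CPM in injured MSC, and Col7a1 reached 5.10 CPM in uninjured CD31+ cells. Col26a1 had 51.0, 36.5 and 49.3 CPM in injured and 40.9, 101 and 48.1 CPM in uninjured MuSC, overlapping groups that did not differ by the test (-0.47 ± 0.50, adjusted p = 0.501). It had at most 5.08 CPM in every other library. Col17a1, a membrane collagen known from hemidesmosomes, had 22.2, 20.9 and 19.1 CPM in injured and 15.7, 9.49 and 12.2 CPM in uninjured MuSC, groups that did not overlap, and did not pass (0.72 ± 0.49, adjusted p = 0.265). Col7a1, the anchoring fibril collagen of skin, fell in MuSC to 1.04, 2.41 and 3.63 CPM after injury against 17.2, 11.5 and 5.50 CPM without it (-2.25 ± 0.69, adjusted p = 0.0112), a call lost without injured or uninjured replicate 1 (adjusted p up to 0.0808).

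Col13a1 and Col28a1 were highest in CD31+ cells without injury. Col13a1, a membrane collagen known from the neuromuscular junction, had 2.77, 6.99 and 1.59 CPM in injured and 16.4, 6.50 and 14.4 CPM in uninjured CD31+ cells and did not pass (adjusted p = 0.0829). In MuSC it rose, with 7.88, 0.963 and 3.63 CPM after injury and 0.581, 1.02 and 0.196 CPM without it (2.87 ± 0.90, adjusted p = 0.0143), and the groups overlapped. Without injured replicate 1 the adjusted p in MuSC was 0.107, and without uninjured replicate 3 it was 0.0728. Col28a1, known from peripheral nerve, fell to 3.38, 4.08 and 2.86 CPM in injured CD31+ cells, against 18.1, 13.3 and 10.9 CPM in uninjured ones (-2.03 ± 0.61, adjusted p = 0.0214, or 0.0509 to 0.0916 without uninjured replicate 1 or any 1 of the injured libraries). Col26a1 fell there too (-3.09 ± 1.06, adjusted p = 0.0405), a call lost without uninjured replicate 2 or 3 or injured replicate 1 or 2 (adjusted p up to 0.242). Summed Schwann cell markers were 49.4 to 74.7 CPM in injured and 57.8 to 82.5 CPM in uninjured CD31+ cells, with Cdh19 at 0 in all 6 libraries. Summed mural cell markers were 338 to 515 CPM in injured and 586 to 827 CPM in uninjured CD31+ cells, and the part of either in these results was not tested.

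Whether the populations answered injury differently was tested as the difference of their injury effects. Between CD31+ cells and MSC the responses of 8 of 37 collagen genes differed, where those of 12.6% of all genes did. Of the 8, all with the higher response in CD31+ cells, 5 were basement membrane genes. Over all genes that passed, 1256 had the higher and 788 the lower response in CD31+ cells. Col15a1 led the basement membrane genes, with a difference of 2.86 ± 0.29 on the log2 scale (adjusted p = 6.96e-07), before Col18a1 with 2.92 ± 0.42 (adjusted p = 6.27e-05), Col4a1 with 1.31 ± 0.32 (adjusted p = 0.0091) and Col4a2 with 1.29 ± 0.33 (adjusted p = 0.0138). The calls of Col4a1 and Col4a2 were lost in 2 and 5 of 16 alternatives. The count was 3 without injured MSC replicate 1, and 4 without uninjured CD31+ replicate 1 or uninjured MSC replicate 1. It was 5 without uninjured CD31+ replicate 3, injured CD31+ replicate 2 or uninjured MSC replicate 2.

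Between CD31+ cells and MuSC the responses of 8 of 37 genes differed, where those of 12.3% of all genes did. Of the 8 basement membrane genes, 4 passed, with the higher response in CD31+ cells: 3.42 ± 0.31 for Col15a1 (adjusted p = 1.01e-07), 3.01 ± 0.43 for Col18a1 (adjusted p = 5.47e-05), 1.75 ± 0.32 for Col4a1 (adjusted p = 0.000974) and 1.53 ± 0.34 for Col4a2 (adjusted p = 0.00446). The differences of Col4a3 (0.71), Col4a4 (0.86), Col4a5 (-1.26) and Col4a6 (2.74) did not pass. The 4 calls held under all 17 alternatives. Col8a1 went the other way, with -4.91 ± 0.79 (adjusted p = 0.000452), and so did Col13a1. These comparisons and the one before share the CD31+ libraries.

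Between MSC and MuSC the responses of 4 of 37 genes differed, where those of 7.73% of all genes did, a share that the count is near. All 4 were lower in MSC. Over all genes that passed, 914 were lower and 343 higher in MSC. The 4 collagen genes were Col6a3 (-3.89 ± 0.89, adjusted p = 0.0118), Col8a1 (-3.05 ± 0.79, adjusted p = 0.0225), Col14a1 (-3.37 ± 0.97, adjusted p = 0.038) and Col13a1 (-4.31 ± 1.31, adjusted p = 0.0456). Those of Col6a3 and Col8a1 did not pass without the injured MuSC replicates 2 and 3. That fit held 1 injured MuSC library, so that a smaller effect and fewer replicates cannot be told apart. The count was 1 without uninjured MSC replicate 2, injured MSC replicate 3, uninjured MuSC replicate 1 or uninjured MuSC replicate 3. It was 2 without uninjured MSC replicate 3, injured MSC replicate 2 or injured MuSC replicate 1. None of the 8 basement membrane genes passed edgeR's test of a different response between MSC and MuSC, and 1 had an unadjusted p below 0.05.

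Genes whose products turn a collagen chain into a secreted trimer were taken from fixed lists. Of 18 genes for hydroxylation and folding, 3 rose and 3 fell in MSC, 6 rose and none fell in MuSC, 6 rose and 2 fell in CD31+ cells, and 6 rose and 1 fell in CD45+ cells. Of all genes, 18.3% rose and 23.6% fell in MSC, 21.4% and 17.5% in MuSC, 14.1% and 9.3% in CD31+ cells, and 16% and 18.5% in CD45+ cells, so that the MSC counts were not above these shares. Plod3, a lysyl hydroxylase that also adds sugars to collagen, rose in all 4 populations, to 430 ± 18 CPM in injured against 211 ± 20 CPM in uninjured MSC and to 246 ± 31 CPM in injured against 134 ± 26 CPM in uninjured CD31+ cells (SD, n = 3 each). Serpinh1, the collagen chaperone Hsp47, rose in CD31+ cells, to 628 ± 111 CPM after injury against 293 ± 12 CPM without it (log2 fold change 1.10 ± 0.25, adjusted p = 0.0025). In MSC it had 1319 ± 217 CPM after injury and 1246 ± 69 CPM without it and did not pass. Fkbp10, a folding enzyme of collagen, rose in CD31+ cells (1.66 ± 0.31, adjusted p = 0.00041), and Colgalt1, which adds galactose to hydroxylysine, rose there as well (0.89 ± 0.12, adjusted p = 3.3e-06). In MuSC the 6 that rose were Ppib, Plod3, Colgalt1, P4ha1, P4hb and Serpinh1.

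Of 10 tested genes for export and propeptide cutting, 5 fell and none rose in MSC, and 3 rose and 2 fell in MuSC, beside the same shares of all genes. In CD31+ cells 1 rose and 1 fell, and in CD45+ cells 2 rose and 1 fell. Pcolce2, an enhancer of the enzyme that trims fibrillar procollagens, fell to 241 ± 74 CPM in injured MSC, against 1540 ± 382 CPM in uninjured MSC (-2.67 ± 0.30, adjusted p = 5.5e-07). Bmp1, that enzyme, fell in MSC (-1.16 ± 0.24, adjusted p = 0.00055) and in MuSC (-1.30 ± 0.25, adjusted p = 0.00024). Of the 5 genes for crosslinking, Loxl2 fell in MSC, to 52.5 ± 8.9 CPM against 198 ± 5 CPM, and in MuSC, to 6.33 ± 2.5 CPM against 23.0 ± 2.7 CPM without injury. Loxl3 rose in MSC and Lox in MuSC, so that 1 of the 5 rose and 1 fell in each. Of all genes 18.3% rose and 23.6% fell in MSC, and 21.4% and 17.5% in MuSC, shares that these counts are near. None of the 5 passed in CD31+ or CD45+ cells, where their median log2 fold changes were -0.18 and 2.37. Over all genes tested these medians were -0.04 and -0.12.

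Of 8 tested genes for collagen receptors and uptake, 3 fell and none rose in MSC, and 2 fell and none rose in MuSC, where 23.6% and 17.5% of all genes fell, a share that the MuSC count is near. In CD31+ and in CD45+ cells 1 rose and 1 fell. Itga11, the integrin chain that binds fibrillar collagen on fibroblasts, fell in MSC to 43.7 ± 11.7 CPM after injury against 380 ± 71 CPM without it (-3.12 ± 0.30, adjusted p = 2.5e-08). It also fell in MuSC, at a far lower level, to 1.11 ± 0.35 CPM after injury against 3.53 ± 1.5 CPM without it (adjusted p = 0.014). Itga1, the integrin chain for collagen IV, fell in MSC (-1.92 ± 0.38, adjusted p = 0.00034) and in CD31+ cells (-1.04 ± 0.28, adjusted p = 0.0099) and rose in CD45+ cells (1.49 ± 0.38, adjusted p = 0.0036).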

How the data were processed

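RNA-seq was analysed from 24 libraries of about 1000 double-sorted cells each, made with an oligo(dT) primer, PCR and Nextera XT and read as paired 25-base reads, per the labels' protocols. These steps mark no strand, and no molecular identifiers are named, so PCR copies count as reads. The authors deposited raw counts per gene symbol, made with STAR 2.5.4 and featureCounts on mm10, per the submitters' processing notes. No source used here states the settings of featureCounts.

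The members and gene lists were chosen with earlier results of these data known. Genes were filtered by edgeR 4.0.16 (R 4.3.3) over the 8 groups, which left 16263. Library sizes were scaled by TMM, and 1 model with 8 group means took in all libraries (residual degrees of freedom 16, common biological coefficient of variation 0.224). P-values come from edgeR's robust quasi-likelihood test, adjusted by Benjamini-Hochberg over all genes tested in a comparison, with 0.05 as the threshold. Standard errors are approximate. The procedure was tested on simulated data. Every library differed from the others of its group by more than counting error. Values in every library are given for up to 5 called members per population with at least 20 CPM and the smallest adjusted p, for the top 3 of each class and for the basement membrane class. Other genes with such values (Col5a2, Col6a6, Col8a2, Col27a1, Col19a1, Col26a1, Col17a1, Col7a1, Col13a1 and Col28a1) were chosen after their values were seen, as were some of the genes named from the other lists. Transcript lengths and positions come from GENCODE vM21 on GRCm38. Alternatives were DESeq2 1.42.0, RLE scaling, no filter, a replicate block, fits of single populations and leaving out libraries.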

Additional observations from a re-analysis of the deposited data

Results flagged for a closer look

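For 20 pairs of a collagen gene and a comparison, the injury effects of both populations differed by the test of the difference itself (edgeR's quasi-likelihood test, adjusted p below 0.05). Groups of 3 libraries are too small for a test of single outlying samples.

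Injury effects in CD31+ cells minus those in MSC were, on the log2 scale, 2.86 for Col15a1, 2.92 for Col18a1, 1.31 for Col4a1, 1.29 for Col4a2 and 2.18 for Col4a3. They were 2.80 for Col5a3, 3.73 for Col6a1 and 3.99 for Col6a6, genes that stayed at or below 11.3 CPM in CD31+ cells, and Col4a3 had at most 7.23 CPM there. Of 16 alternatives, 14 ended the difference of Col5a3, 9 that of Col4a3 (the replicate block among them), 6 that of Col6a6 and 3 that of Col6a1.

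Injury effects in CD31+ cells minus those in MuSC were 3.42 for Col15a1, 3.01 for Col18a1, 1.75 for Col4a1, 1.53 for Col4a2 and 3.32 for Col6a1. They were -4.60 for Col13a1, -3.35 for Col6a3 and -4.91 for Col8a1. The differences of Col13a1, Col15a1, Col18a1, Col4a1, Col4a2 and Col8a1 held in all 17 alternatives, and those of Col6a1 and Col6a3 were lost in 11 and 12.

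Injury effects in MSC minus those in MuSC were -4.31 for Col13a1, -3.37 for Col14a1, -3.89 for Col6a3 and -3.05 for Col8a1. Col13a1 had at most 1.999 CPM in every MSC library and Col14a1 had at most 2.23 CPM in every MuSC library. The differences of Col13a1, Col14a1 and Col8a1 were lost in 11, 9 and 10 of 17 alternatives, and that of Col6a3 in 1, without the injured MuSC replicates 2 and 3.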

How the results depend on the processing

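No direction of a called collagen gene turned under any alternative. Of the counts of genes recomputed under an alternative, 196 stayed within 1.5 times the reported count and 38 did not. Without the filter on low counts, 3 collagens rose in CD31+ cells and 3 in MSC. With only the 6 libraries of a population, 3 rose in CD31+ cells, 0 in CD45+ cells and 2 in MSC. With RLE scaling, with DESeq2 and with the replicate block, 0 rose in MSC, and DESeq2 gave 2 in CD45+ cells. Leaving out the injured MuSC replicates 2 and 3 rests on their Pdgfra counts. It left 1 injured MuSC library, so that no count is given for it. Leaving out 1 library gave 1 to 2 higher and 0 to 2 lower collagens in CD31+ cells, 0 to 1 higher and 1 to 3 lower in CD45+ cells, 0 to 2 higher and 10 to 19 lower in MSC, and 2 to 4 higher and 8 to 12 lower in MuSC. It gave 19 to 22 genes highest in uninjured MSC, 1 to 4 responses that differed between MSC and MuSC, 3 to 7 between CD31+ cells and MSC, and 6 to 8 between CD31+ cells and MuSC. Changes called among the synthesis and receptor genes numbered 55 in the reported fit and 49 to 61 when 1 library was left out. Deviations of same-numbered libraries from their group means had correlations from -0.083 to 0.133. Differently numbered libraries were not compared, so this cannot tell whether the numbers pair the libraries. The replicate block also ended the Col4a3 call in CD31+ cells (adjusted p = 0.0617). Relative to TMM, the middle of all log2 fold changes in CD31+ cells shifted by -0.11 with RLE scaling and 0.15 without the filter, and by 0.20 in MSC without the filter. The collagens below 0 remained 32 of 37 in MSC and 24 of 37 in MuSC under each of these. Genes under about 3 counts in a library are limited by depth.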
